A study of Mus musculus with 8 samples.

Results

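Carriers for amino acids, glucose and monocarboxylates were followed in polysomal RNA of mouse eggs and early embryos. Polysomes are the clusters of ribosomes on mRNAs under translation. Members were chosen by symbol alone: every probe set whose single annotated gene symbol starts with Slc1a, Slc2a, Slc6a, Slc7a, Slc16a or Slc38a followed by a digit. The rule found 157 of 45037 probe sets, for 78 of 18193 gene symbols. Of these symbols, 3 are not carriers: Slc7a6os and Slc6a19os are named as opposite-strand genes of carriers, and Slc2a4rg-ps is a pseudogene. The labels name no genotype, strain or age for either group. MII oocytes, arrested at metaphase of the second meiotic division, supplied 4 arrays with no stated treatment. One-cell embryos, collected after fertilization and treated with α-amanitin, which blocks transcription by RNA polymerase II, supplied the other 4. Each array held RNA from a batch of 160 to 500 oocytes or embryos, amplified in 2 rounds of in vitro transcription, and the labels call the replicates independent. Stage and α-amanitin changed together and cannot be told apart. Every array held polysomal RNA, with no total RNA beside it, so the amount of an mRNA and the share of it on polysomes cannot be told apart either.

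Solute carriers of the 6 families move small nutrients across membranes. The Slc1a (glutamate and neutral amino acids), Slc6a (sodium- and chloride-coupled amino acids and transmitters) and Slc38a (glutamine and other neutral amino acids) proteins are largely driven by sodium. Slc7a proteins are mostly amino acid exchangers, many of which reach the membrane only with the heavy chain Slc3a2 or Slc3a1. Slc2a proteins (GLUTs) let hexoses pass down their gradient, and several Slc16a proteins (MCTs) carry lactate and pyruvate with a proton. Mouse eggs and cleavage embryos are known for burning pyruvate before they can use glucose well, and for taking up glycine, proline and betaine to hold their volume.

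The arrays were of unequal quality. Correlations of log2(signal + 10) were 0.928 to 0.958 between MII arrays, 0.763 to 0.944 between one-cell arrays and 0.587 to 0.832 between groups. One-cell array 1 differed from the rest: its median signal was 71.8 while those of the other arrays were 26.9 to 37.9, and its 18 hybridization controls averaged 14879 (geometric mean) compared with 857 to 3718. Oocyte markers were bright on every array, and all 8 passed the filter for dim probe sets, 3 of them higher and 2 lower in embryos. Their summed signal was 49838 to 67586 on MII arrays and 35311 to 51758 on one-cell arrays. Markers of cumulus and granulosa cells, which surround the egg, summed to 400.6 to 510.4 and 342 to 1284 over 10 measured markers, of which 6 passed the filter and 1 was higher in embryos. Sperm and spermatid markers summed to 207 to 278 and 205 to 596 over 8 markers, of which 4 passed the filter, 1 higher and 1 lower in embryos. Of 2 blood cell markers none passed the filter, and their sums were 56.1 to 88.3 and 23.2 to 75.5.

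Transporter mRNAs moved in both directions. The glycine carrier Slc6a9, the proline carrier Slc6a7, the glucose carrier Slc2a1 and the MCT family member Slc16a13 rose on polysomes of one-cell embryos. The imino acid carrier Slc6a20a, the neutral amino acid carrier Slc6a15, the inositol carrier Slc2a13 and the creatine carrier Slc16a12 fell. A probe set was tested if its signal exceeded the array median on at least 4 of the 8 arrays, and a gene was represented by its brightest such probe set. This left 52 of 78 member genes (66.7%, against 67.9% of all genes). Among them 7 rose and 7 fell at an adjusted p under 0.05 (limma), or 26.9% of those tested, where the background over all 12359 genes was 34.8% called (20.1% higher and 14.7% lower). Over probe sets, 15 of 81 members were higher and 12 lower, a share of 33.3% against a background of 32.1%. The groups of arrays did not overlap in 17 of the 52 genes (32.7%), against 35.2% of all genes, and in 28 of the 81 probe sets, against 32.6% of all probe sets kept. Both shares lie near or below the background, so the number of calls sets nothing apart here. Without one-cell array 1, 7 member genes were higher and 8 lower, and all 14 were among them.

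**Figure D1:**
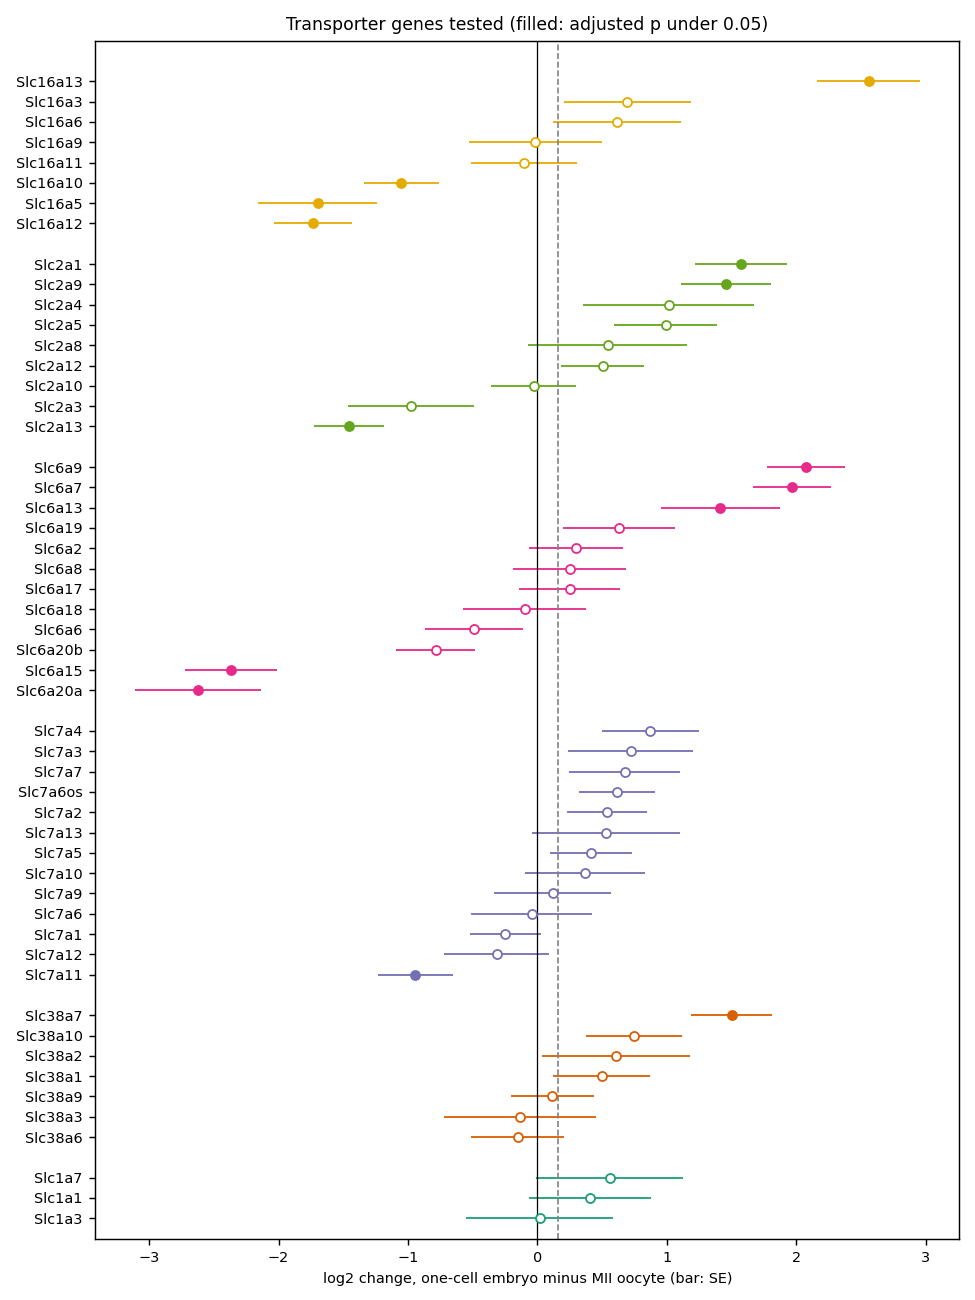
The log2 change (one-cell embryo minus MII oocyte, horizontal axis, bar: SE, n = 4 arrays per group) is shown for each of the 52 tested genes, coloured and grouped by family. Filled points passed the test at an adjusted p under 0.05, and the dashed line is the median of all genes (0.16). Changes run from -2.62 for Slc6a20a to 2.56 for Slc16a13, and the families of Slc6a, Slc2a and Slc16a hold 12 of the 14 filled points. In these families 41.7%, 33.3% and 50% of the tested genes passed, beside 34.8% of all genes.

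A log2 change is the embryo mean minus the oocyte mean of log2(signal + 10), given with its limma SE. The added 10 shrinks the change of dim mRNAs. The median change of the 52 genes was 0.39 against 0.16 for all genes. That of all genes depends on how the arrays are scaled (0.16 on the deposited scale, -0.10 with quantile normalization and -0.16 with each array centred on its median), so medians are also given relative to it. Relative to all genes the members' median was 0.23 on the deposited scale, 0.059 with quantile normalization and 0.028 without one-cell array 1. Of all probe sets called, 60.2% were higher on the deposited scale, 48.7% with quantile normalization and 50.8% with centring. For the members the split was 7 higher and 7 lower, then 6 and 8 with quantile normalization and 5 and 8 with centring.

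By family the share of tested genes called was 41.7% in Slc6a, 33.3% in Slc2a, 50% in Slc16a, 14.3% in Slc38a, 7.69% in Slc7a and 0% in Slc1a, beside 34.8% of all genes. Over kept probe sets it was 40% in Slc6a, 41.7% in Slc2a, 50% in Slc16a, 28.6% in Slc38a and 23.8% in Slc7a, beside 32.1% of all. In Slc6a, 3 of 12 tested genes rose and 2 fell. In Slc2a, 2 of 9 rose and 1 fell, and in Slc16a 1 of 8 rose and 3 fell. In Slc38a 1 of 7 rose and 0 fell, in Slc7a 0 of 13 rose and 1 fell, and in Slc1a 0 of 3 passed (limma). At an unadjusted p under 0.05 1 gene was higher in Slc7a, 0 were lower in Slc38a, and 0 were either in Slc1a. Family medians relative to all genes were 0.38 for Slc2a, 0.34 for Slc38a, 0.25 for Slc7a, 0.24 for Slc1a, 0.089 for Slc6a and -0.22 for Slc16a. Without one-cell array 1 they were 0.32 for Slc2a, 0.025 for Slc38a, 0.15 for Slc7a, 0.032 for Slc1a, -0.092 for Slc6a and -0.48 for Slc16a, and with the hybridization controls as a covariate that of Slc38a was -0.20. These are descriptions: each family is small, and no test of one family against another was run. Within Slc6a the spread of changes was 4.70 log2 units wide and within Slc16a 4.30, so their medians stand for members that moved far apart.

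**Figure D2:**
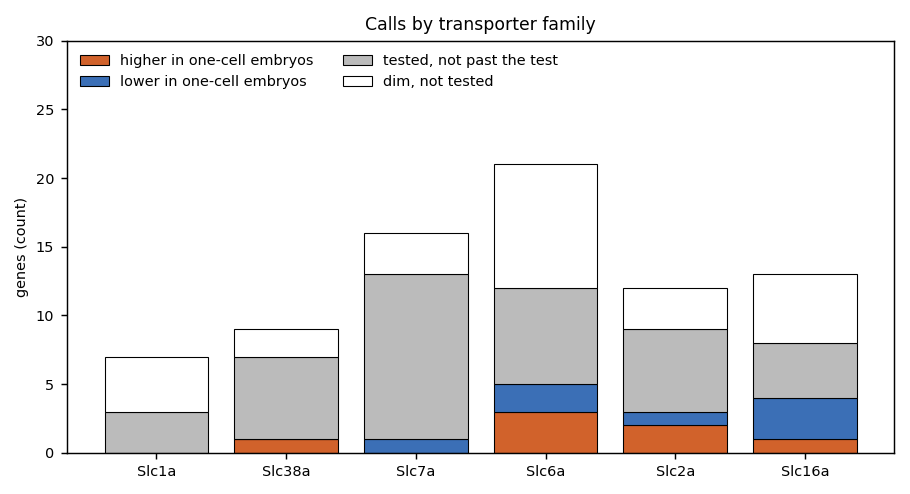
Stacked bars count the member genes of each family by outcome: higher, lower, tested without passing, or too dim to test. Slc6a has the most symbols (21, with 9 too dim), and Slc7a the largest number tested without passing (12).

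Sodium-coupled carriers of the Slc6a family changed in both directions. Slc6a9 encodes GLYT1, the carrier through which mouse eggs and early embryos accumulate glycine as an osmolyte. Its signal on MII arrays 1 to 4 was 465, 775, 418 and 597, and on one-cell arrays 1 to 4 it was 1991, 1876, 2413 and 3318. All one-cell arrays lay above all MII arrays. The group means were 564 ± 160 (SD, n = 4) and 2400 ± 654, and the log2 change was 2.07 ± 0.30 (adjusted p = 6.85e-05). The other kept probe set of Slc6a9 changed by 2.32 ± 0.36, with signals of 75.7 to 177 on MII arrays and 467 to 1317 on one-cell arrays.

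Slc6a7 encodes PROT, a high-affinity proline carrier best known from the brain. Its MII signals of 339, 565, 384 and 569 compare with 1307, 1544, 2178 and 2392 on the one-cell arrays. Here too the groups did not overlap, and the log2 change was 1.97 ± 0.30 (adjusted p = 0.00011). Slc6a13, a carrier of GABA and taurine, was dim. It gave 38.6, 10.2, 13.3 and 12 on MII arrays and 85.1, 56.1, 35.6 and 78.6 on one-cell arrays, with MII array 1 above one-cell array 3. Only 1 MII array lay above its own array's median, so the gene was kept through its bright group, which favours a difference. The change of 1.41 ± 0.46 (adjusted p = 0.0261) lost its call without any one of MII arrays 2 to 4 or one-cell array 4 (1.28 to 1.35, adjusted p = 0.0641 to 0.0798). It also missed the threshold with quantile normalization (1.11, adjusted p = 0.0657), centring (1.10, adjusted p = 0.0729), no filter (adjusted p = 0.0562) and a covariate for the mean hybridization control signal (1.07, adjusted p = 0.142), so the call failed in 8 of 18 alternatives.

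The imino acid carriers went the other way. Slc6a20a encodes SIT1, a carrier of proline and betaine whose transport is known to appear in mouse eggs after fertilization. On MII arrays its signal was 542, 771, 701 and 510.0, and on one-cell arrays 15.6, 166, 127 and 168. Every embryo array lay below every oocyte array, with one-cell array 1 far below the others of its group. The log2 change was -2.62 ± 0.49 (adjusted p = 0.00059) and without that array -1.96, still past the test. Its paralogue Slc6a20b has a pair of kept probe sets. The brighter one had MII signals of 189, 405, 188 and 236 and one-cell signals of 153, 113, 151 and 131, which do not overlap, with a change of -0.79 ± 0.31 that missed the threshold (adjusted p = 0.0605), though it passed after quantile normalization (-1.22, adjusted p = 0.00745). The dimmer one fell by 2.37 ± 0.39 (adjusted p = 0.000216), with signals of 106 to 156 on MII arrays and 6.9 to 32.9 on one-cell arrays. Only 1 of its one-cell values lay above the array median, so its MII arrays carried it past the filter, which favours a difference. Averaged over the pair, the change was -1.58 (adjusted p = 0.000515). Whether probe sets of the paralogues detect each other's mRNA was not tested.

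Slc6a15, a sodium-coupled carrier of branched-chain amino acids and proline, gave 1776, 722, 1525 and 712 on MII arrays. On one-cell arrays it gave 124, 218, 302 and 203, all below the lowest oocyte array, and the log2 change was -2.37 ± 0.36 (adjusted p = 9.65e-05). For the taurine carrier Slc6a6 the probe sets disagreed. The brightest gave 1157, 3071, 1313 and 1538 against 729.8, 1166, 972 and 2186, with overlapping groups and a change of -0.49 ± 0.38 (adjusted p = 0.368). Another one fell by 1.52 ± 0.31 (adjusted p = 0.00132), from signals of 337 to 751 to signals of 115 to 212, and the remaining one changed by 0.61 ± 0.36 (adjusted p = 0.225). The 6 other tested Slc6a genes (Slc6a2, Slc6a8, Slc6a17, Slc6a18, Slc6a19 and Slc6a20b) changed by -0.79 to 0.63 and did not pass.

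**Figure D3:**
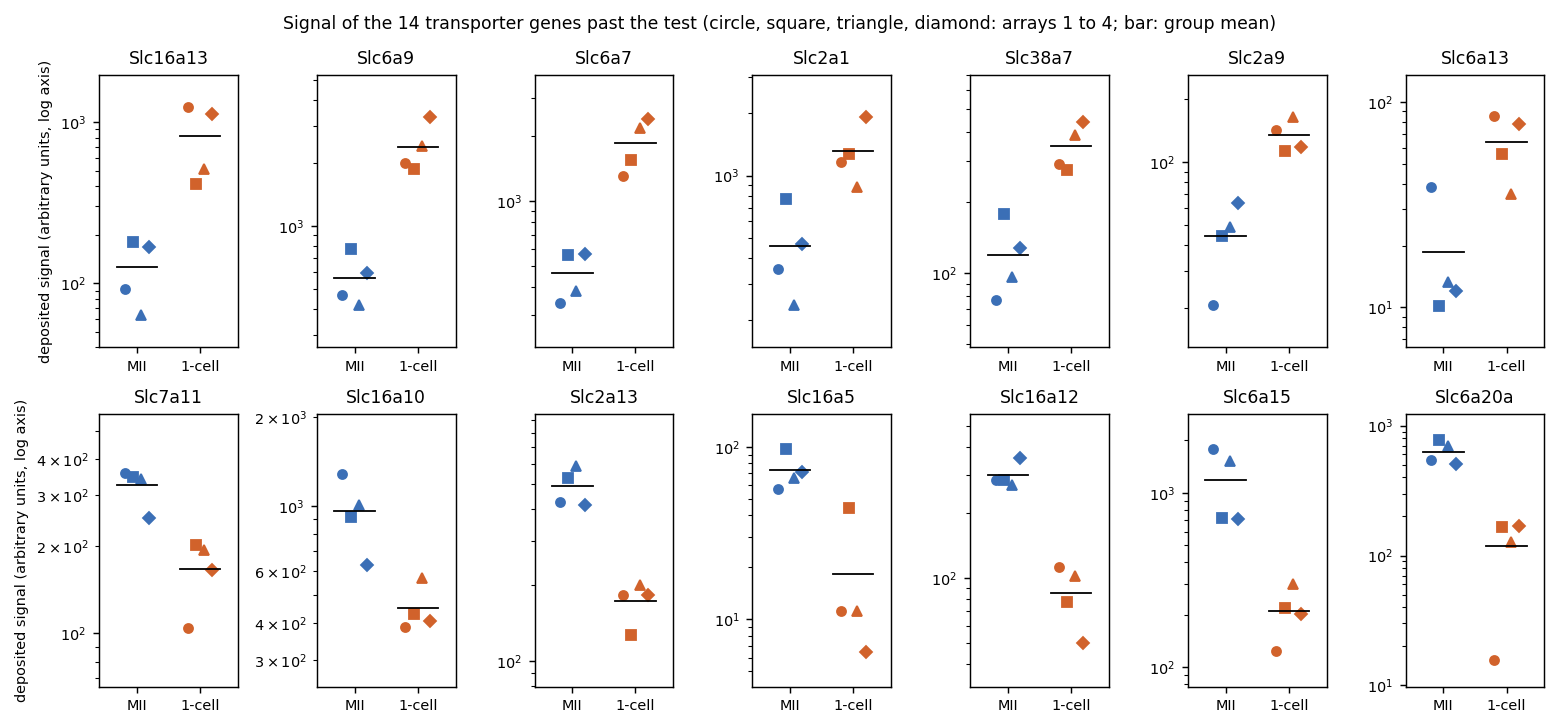
Each panel shows the deposited signal (arbitrary units, log axis) of a gene past the test on the 4 MII oocyte arrays (blue) and the 4 one-cell embryo arrays (orange), with a bar at the group mean. The symbols mark arrays 1 to 4. The groups overlap for Slc6a13 among the 14 genes, and one-cell array 1 is the lowest of its group for Slc6a20a, at 15.6.

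Among the hexose carriers, Slc2a1 and Slc2a9 rose and Slc2a13 fell. Slc2a1 encodes GLUT1, the widely expressed basal glucose carrier. Its brightest probe set gave 352, 769, 237 and 466 on MII arrays and 1166, 1274, 881 and 1921 on one-cell arrays. The groups did not overlap, and the log2 change was 1.57 ± 0.35 (adjusted p = 0.00267). Its 2 other kept probe sets rose as well, by 1.28 ± 0.32 and 1.38 ± 0.36 (adjusted p = 0.00556 and 0.00695), calls that quantile normalization and centring each ended. The annotation gives these 2 the same source sequence. The groups overlapped for the one that rose by 1.38, with 238.5 on MII array 2 and 228.8 on one-cell array 1. With each array centred on its median the rise of Slc2a1 was 1.26 ± 0.45 and missed the threshold (adjusted p = 0.0564). Slc2a9, known mainly as a urate carrier, gave 20.8, 44.3, 48.9 and 63.7 and then 142, 113, 164 and 118. Every embryo array was above every oocyte array, with a change of 1.46 ± 0.35 (adjusted p = 0.00406).

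Slc2a13 (HMIT) couples the uptake of myo-inositol to protons. It gave 428, 528, 594 and 415 on MII arrays and 182, 127, 201 and 182 on one-cell arrays, with no overlap and a change of -1.46 ± 0.27 (adjusted p = 0.000647). Slc2a3 encodes GLUT3, a high-affinity glucose carrier. Its kept probe set was dim, with 49.3, 41.4, 31.8 and 44.6 against 3.7, 16, 26.9 and 25.3. The groups did not overlap, yet all 4 embryo values lay under the medians of their arrays and the change of -0.98 ± 0.48 did not pass (adjusted p = 0.143). The insulin-responsive carrier Slc2a4 (1.02 ± 0.66, adjusted p = 0.278) and Slc2a8 (0.54 ± 0.61, adjusted p = 0.562), a carrier studied in blastocysts, did not pass either. Slc2a4 rested on a bright one-cell array 1, at 209 against 6.2 to 51.7 on the other embryo arrays, and its change was 0.35 without that array, where that of Slc2a8 was 0.091. The fructose carrier Slc2a5 (0.99 ± 0.40, adjusted p = 0.0703), Slc2a10 and Slc2a12 complete the 9 genes tested.

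In the monocarboxylate family, Slc16a13 rose and Slc16a10, Slc16a12 and Slc16a5 fell. Slc16a13 (MCT13) has been described as a lactate carrier. It gave 91.4, 181, 63.9 and 168 on MII arrays and 1231, 412, 512 and 1117 on one-cell arrays. The lowest embryo array was above the highest oocyte array, and the change of 2.56 ± 0.40 (adjusted p = 0.000126) was the largest rise among the 52 genes. Slc16a10 (TAT1) carries aromatic amino acids. Its brightest probe set gave 1284, 920.2, 1008 and 629.9 and then 389, 429.7, 571 and 408, without overlap, and changed by -1.05 ± 0.29 (adjusted p = 0.00978). The other kept probe set of Slc16a10 fell by 1.56 ± 0.28 (adjusted p = 0.000426). With the hybridization controls as a covariate the brightest changed by -0.81 and missed the threshold (adjusted p = 0.0717).

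Slc16a12, a creatine carrier, gave 284, 284, 269 and 358 on MII arrays and 112, 77.5, 102 and 50.2 on one-cell arrays. Again the groups were apart, with a change of -1.74 ± 0.30 (adjusted p = 0.000338). Slc16a5 is dimmer, at 56.9, 97.0, 66.0 and 71.5 against 11.2, 44.1, 11.2 and 6.5. Only 1 embryo array lay above its median, so the MII arrays carried the probe set past the filter, which favours a difference. The size of its change (-1.70 ± 0.46, adjusted p = 0.00926) is also poorly set. Among the MCTs known for lactate and pyruvate, Slc16a3 (MCT4) did not pass (0.70 ± 0.49, adjusted p = 0.324). Slc16a1 (MCT1) and Slc16a7 (MCT2) were too dim to test: the brighter Slc16a1 probe set lay between 2.5 and 40.4 over the 8 arrays and the Slc16a7 probe set between 1.8 and 8.0. Low signals on these probe sets do not show that the mRNAs are absent.

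Of the 13 tested genes with Slc7a symbols 1 passed (7.69%, beside 34.8% of all genes), but some hold probe sets that moved in opposite directions. Slc7a11 encodes xCT, which takes up cystine in exchange for glutamate and so feeds glutathione synthesis. Its brightest probe set (1443536_at) gave 358, 346, 342 and 250.4 on MII arrays and 105, 202, 194 and 166 on one-cell arrays, a change of -0.94 ± 0.29 (adjusted p = 0.0194). The other one (1420413_at), which the annotation ties to a RefSeq mRNA, gave 55.4, 92.3, 92.2 and 88.7 and then 374, 459.9, 428 and 300.5, a change of 2.13 ± 0.29 (adjusted p = 3.46e-05). Neither pair of groups overlapped. Averaged over the pair, Slc7a11 changed by 0.59 ± 0.23 (adjusted p = 0.0578), so the direction of Slc7a11 is not settled. The fall lost its call without MII array 1 or 3 (-0.89 and -0.92, adjusted p = 0.0564 and 0.0576) and with the control covariate (-0.595, adjusted p = 0.15), while the rise kept its call in all 18 alternatives run on it.

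Slc7a2 encodes CAT2, a carrier of arginine and lysine, and its 4 kept probe sets split too. The brightest (1422648_at) gave 149, 239.7, 235 and 227 on MII arrays and 296, 246, 516 and 238 on one-cell arrays, and its change of 0.54 ± 0.31 did not pass (adjusted p = 0.212). Probe set 1426008_a_at rose from signals of 24.3 to 54.8 on MII arrays to signals of 200.3 to 398 on one-cell arrays, by 2.38 ± 0.33 (adjusted p = 4.58e-05). Probe set 1436555_at fell from signals of 86.0 to 162 to signals of 2.9 to 49.0, by 1.94 ± 0.46 (adjusted p = 0.00364). That fall missed the threshold in the fit with the control covariate (-1.10, adjusted p = 0.0568). Probe set 1450703_at changed by -1.44 ± 0.46 (adjusted p = 0.0253), and it was kept through the MII arrays alone, since all 4 embryo values (5.0 to 25.8) lay under the array medians. The annotation gives it the same source sequence as 1422648_at. It lost its call in 6 of 17 alternatives: with no filter, with the covariate, and with MII array 1, 2 or 4 left out, or one-cell array 2 (-1.18 to -1.47, adjusted p = 0.0529 to 0.0971). The rising and the falling probe sets each separated the groups of arrays. Which parts or forms of the mRNA each one detects is not given in the sources used here.

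Slc7a1 (CAT1), the general carrier of cationic amino acids, did not pass with any of its 3 kept probe sets. The brightest gave 592, 679, 719.9 and 635 on MII arrays and 729, 468, 406 and 659 on one-cell arrays (-0.25 ± 0.28, adjusted p = 0.557), and the others changed by 0.49 ± 0.29 and 0.31 ± 0.43. Slc7a5 (LAT1), an exchanger of large neutral amino acids, gave 114, 202, 187 and 139 against 124, 220.4, 280.4 and 259, with overlapping groups (0.41 ± 0.32, adjusted p = 0.372). Slc7a6 (-0.042 ± 0.47) and Slc7a7 (0.67 ± 0.43), light chains that exchange cationic for neutral amino acids, did not pass (adjusted p = 0.962 and 0.263). Slc7a8 (LAT2) was too dim to test, at 11.9 to 54.8 on MII arrays and 3.5 to 29.0 on one-cell arrays. The 7 other tested Slc7a genes, Slc7a6os among them, changed by -0.31 to 0.87 without passing.

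**Figure D4:**
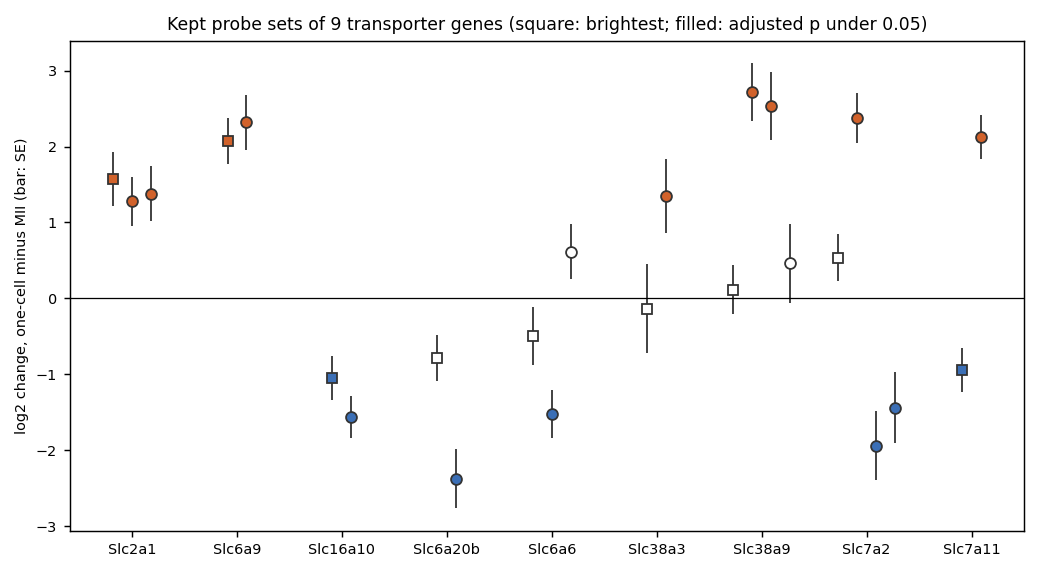
The log2 change (one-cell embryo minus MII oocyte, vertical axis, bar: SE) is plotted for each kept probe set of 9 genes, with a square for the brightest and filled symbols past the test. All kept probe sets of Slc2a1, Slc6a9 and Slc16a10 passed in the same direction, while Slc7a2 and Slc7a11 hold probe sets that passed in both.

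In the Slc38a family of glutamine and neutral amino acid carriers Slc38a7 was called on its brightest probe set, and Slc38a9 and Slc38a3 were called on dimmer ones. Slc38a7 encodes SNAT7, which exports glutamine from lysosomes. It gave 77.0, 179, 95.7 and 128 on MII arrays and 293, 276, 386 and 438 on one-cell arrays. The groups did not overlap, and the change was 1.501 ± 0.31 (adjusted p = 0.00139). Slc38a9, the lysosomal arginine sensor upstream of mTORC1, has 4 kept probe sets. Its brightest gave 144, 304, 236 and 244 against 324, 184, 175 and 334, overlapping, with a change of 0.11 ± 0.32 (adjusted p = 0.836). A second (1447784_x_at) rose by 2.72 ± 0.38 (adjusted p = 4.95e-05), from signals of 10.5 to 39.8 to signals of 161 to 360.4. A further one (1436456_at) rose by 2.54 ± 0.45 (adjusted p = 0.000375). It was kept through the embryo arrays alone, since all 4 MII values (1.7 to 20.6) lay under the array medians. The remaining kept probe set had overlapping groups and did not pass (0.46 ± 0.52, adjusted p = 0.557).

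Slc38a3 (SNAT3) is known for supplying neutral amino acids in the cumulus cells around the egg. Its brightest probe set gave 69.1, 77.3, 88.6 and 92.7 on MII arrays and 225, 81.0, 6.7 and 124 on one-cell arrays, a scatter too wide to show a change (-0.14 ± 0.58, adjusted p = 0.898). The other kept one had only 1 MII value above its array median, so its embryo arrays carried it past the filter. It rose by 1.35 ± 0.49 (adjusted p = 0.0441) with overlapping groups. It lost its call without any 1 of MII arrays 1 to 3 or one-cell arrays 1, 2 and 4 (0.94 without one-cell array 1), and also with quantile normalization, centring, an offset of 1, no filter, no variance trend and the control covariate (0.36, adjusted p = 0.555). Its signals were 20.3, 28.7, 30.1 and 65.2 on MII arrays and 247, 114, 32.5 and 100 on one-cell arrays. The cumulus and granulosa markers summed to 1284, 438, 342 and 641 on one-cell arrays 1 to 4, against 400.6 to 510.4 on MII arrays. Both were highest on one-cell array 1 and lowest of the embryo arrays on array 3. Array 2 had the second highest signal of this probe set and a marker sum within the MII range. The array median was likewise highest on one-cell array 1 (71.8) and lowest of the embryo arrays on array 3 (27.8). So was the sum of sperm and spermatid markers (596 and 205), so the shared order is not particular to the cumulus and granulosa markers. The part of cumulus and granulosa cells in this value was not tested. Slc38a1 (0.50 ± 0.37, adjusted p = 0.358) and Slc38a2 (0.61 ± 0.57, adjusted p = 0.476), carriers of glutamine and alanine, did not pass, and without one-cell array 1 their changes were 0.12 and 0.057. Slc38a4 was too dim to test. In the Slc1a family, the glutamate carrier Slc1a1 gave 33.3, 119, 38.2 and 50.6 against 125, 26.5, 63.4 and 129 (0.41 ± 0.47, adjusted p = 0.577). Slc1a3 and Slc1a7 did not pass either, and Slc1a4 and Slc1a5, carriers of alanine, serine and cysteine or glutamine, were too dim to test.

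Several members with no call thus rest on faint signals. The 76 member probe sets that were not tested had group means of 0.875 to 64.3, and they include every probe set of 26 symbols. Of the 81 kept, 35 lay above the array median on all 8 arrays, 17 on all MII arrays but not all embryo arrays, and 10 on all embryo arrays but not all MII arrays. Of 19 member genes with several kept probe sets, 3 had all of them past the test in the same direction, 2 had calls in both directions, 10 had no call, and the others mixed a call with probe sets that did not pass.

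Genes that assist or resemble the carriers, each taken by its brightest probe set, gave falls and no rise. Of 28 listed heavy chains, chaperones, other carriers and regulators of surface transporters, 18 were tested. Of these, 8 fell and 0 rose at an adjusted p under 0.05 (limma, with 9 lower and 1 higher at an unadjusted p under 0.05). The background was 14.7% lower and 20.1% higher. Median change over the 18 was -0.88 against 0.16 for all genes. The list was chosen with earlier results of these data known and was not tested as a set, so no excess of falls is claimed. Without MII array 1 the number of falls was 4, and with a gene's probe sets averaged 4 fell and 1 rose.

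Slc3a2, the heavy chain that Slc7a5, Slc7a6, Slc7a7 and Slc7a11 need to reach the membrane, was bright on every array. It gave 4249, 6442, 3706 and 4076 on MII arrays and 727, 1852, 1565 and 1651 on one-cell arrays. The groups were far apart, and the change was -1.72 ± 0.35 (adjusted p = 0.0012). Emb, a chaperone of MCTs, gave 233, 222, 516 and 194 and then 125, 106, 102 and 97.5, with no overlap (-1.25 ± 0.32, adjusted p = 0.00689). Its dimmer probe set did not pass (0.12 ± 0.49), and the mean of both missed the threshold. Bsg, the chaperone of Slc16a1 and Slc16a3, changed by 0.74 ± 0.30 and did not pass (adjusted p = 0.0715).

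The oligopeptide carrier Slc15a2 gave 467, 254, 510.4 and 376 against 48.0, 67.2, 109.7 and 84.6. It fell by 2.24 ± 0.32 (adjusted p = 6.01e-05) without overlap, while its 2 dimmer kept probe sets did not pass, and the mean of all 3 missed the threshold (-0.57, adjusted p = 0.161). Txnip, which lowers glucose uptake by driving GLUT1 from the cell surface, gave 8220.4, 6893, 7772 and 7283 and then 1608, 4492, 4150.0 and 2463. All embryo arrays were lower (-1.36 ± 0.37, adjusted p = 0.00932), but its other probe set changed by 0.44 ± 0.29 and did not pass, nor did the mean of both (-0.46) or the brightest in the fit with the control covariate (-0.78, adjusted p = 0.0969). Mpc1, a subunit of the mitochondrial pyruvate carrier, changed by -1.08 ± 0.39 (adjusted p = 0.0424). Slc43a3 changed by -0.92 ± 0.32 (adjusted p = 0.0386), and the ubiquitin ligase Nedd4l by -1.11 ± 0.36 (adjusted p = 0.0267). The ligase Nedd4 changed by -1.02 ± 0.32 (adjusted p = 0.0198) with its brightest probe set and by 1.32 ± 0.26 (adjusted p = 0.00103) with another, so its direction is not settled. Its fall also missed the threshold with centring (-1.34, adjusted p = 0.0534), with the control covariate (-0.70, adjusted p = 0.157) and with MII array 1 left out (-0.83, adjusted p = 0.078).

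The calls of Mpc1, Slc43a3 and Nedd4l were lost in 10, 11 and 8 of 19 alternatives. Mpc1 lost its call when MII array 1, 3 or 4 was left out, and likewise for one-cell array 1 or 4. The change of Mpc1 was -0.62 without one-cell array 1 and -0.22 (adjusted p = 0.635) with the control covariate, and its call also ended with quantile normalization, centring, no filter and no variance trend. That of Slc43a3 was lost with MII array 1, 2 or 4 or with one-cell array 1, 2 or 3 left out, and that of Nedd4l with MII array 1 or 3 or one-cell array 4 left out. Slc43a3 also lost its call with centring, no filter, no variance trend, array weights and the covariate (-0.71, adjusted p = 0.186). Nedd4l also lost its call with quantile normalization (-0.64), centring, no filter, the covariate (-0.61) and averaged probe sets (-0.51, adjusted p = 0.0908). By contrast the calls of Slc6a9, Slc6a7, Slc6a15, Slc6a20a, Slc16a12, Slc16a13, Slc2a13 and Slc38a7 held in all 19 alternatives run on each.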

How the data were processed

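The deposited table gives each probe set a linear intensity on every array. Per the labels, polysomal RNA had been amplified in 2 rounds and labelled with biotin. The authors' array software and scaling method are unknown here, as is any genome build. The mean without the lowest and highest 2% of values was 149 to 150 on each array, so intensities were used as deposited. The files hold no detection calls and the labels no batches. Precision is limited by there being 4 arrays in a group.

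Of 45101 probe sets, 64 controls were left out. Platform annotation gave 1 symbol to 34945, several to 932 and none to 9160; 1 probe set shared by a member and another gene was not used. All 78 symbols matched the RefSeq table by gene ID. An offset of 10 was added before log2. The 23336 probe sets above the array median on at least 4 arrays entered a two-sided test with limma 3.58.1 (R 4.3.3; lmFit, then eBayes with trended variance), adjusted by Benjamini-Hochberg over all of them at a threshold of 0.05, a step tested on simulated data. Named are all member genes past the test and a panel of 25 genes known from egg and embryo physiology. The second probe sets, and the members named as not passing beyond these, were chosen after their values were seen. Members, lists and rules were chosen with earlier results of these data known.

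No pairing of the arrays by replicate number was seen. No sequences are shown, since no mRNA, probe or protein sequences of the members were used here. Alternatives covered normalization, offset, filter, variance model, array weights, replicate block, control covariate, arrays left out, averaged probe sets and a stricter threshold.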

Additional observations from a re-analysis of the deposited data

Results flagged for a closer look

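Single arrays stood apart from the other 3 of their group in 6 of 94 groups examined over 47 genes, where the gap to the nearest array exceeded Dixon's 95% critical share of the group's range on the log2 scale. Chance flags about 1 group in 20. One-cell array 1 was low for Slc6a20a (15.6, gap 0.865 of the range) and high for Slc38a1 (349.6, gap 0.831). MII array 1 was high for Slc6a13 (38.6, gap 0.837), low for Slc7a2 (149, gap 0.886) and low for the glucose carrier Slc5a2 (36.8, gap 0.97). MII array 4 was low for Slc7a11 (250.4, gap 0.876). One-cell array 1 is the array with the brightest hybridization controls, and whether its outlying values share a source with them was not tested.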

How the results depend on the processing

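Of the 14 member genes called, Slc6a13 lost its call in 8 of 18 alternatives, Slc7a11 in 3 of 19 besides its reversal, and Slc16a10 and Slc2a1 in 1 of 19 each. The share of tested member genes called ran from 17.9% (no filter) to 48% (filter at the 75th percentile), and 11 of the 14 were called with the control covariate. With no filter 3922 of all 18193 genes were called. Over probe sets, 26 of 157 members were called with no filter, against 15.4% of all probe sets. With the 75th percentile filter 21 of 36 were called, against 53% of all. Leaving out 1 array gave 12 to 15 member genes (6 to 8 higher, 6 to 8 lower), 24 to 28 member probe sets (13 to 16 higher, 10 to 14 lower), 6077 to 8058 of all probe sets (3833 to 4782 higher, 2234 to 3276 lower), and 4 to 7 lower and 0 to 1 higher partner genes. Family medians then ran from -0.060 to 0.35 for Slc6a (lowest without one-cell array 1), -0.45 to 0.20 for Slc16a, 0.064 to 0.75 for Slc1a, 0.35 to 0.89 for Slc2a, 0.057 to 0.66 for Slc38a and 0.18 to 0.495 for Slc7a. The Slc6a median was -0.12 after quantile normalization, -0.068 after centring and -0.49 with a filter at the 75th percentile, where Slc16a had -0.58 and no Slc1a gene remained. With the hybridization controls as a covariate the medians were -0.72 (Slc16a), 0.062 (Slc2a), -0.29 (Slc38a), -0.32 (Slc6a) and -0.045 (Slc7a). Centring gave 2937 higher probe sets of all and 4 lower partner genes, and a threshold of 0.01 gave 1771 lower probe sets and 4 lower partner genes. Partner falls were 5 with no filter, 3 with the covariate and 4 with averaged probe sets; 1 partner rose with averaged probe sets and 1 with the 75th percentile filter. Averaged probe sets turned Slc7a11 (0.59) and Nedd4 (0.069). The brightest Slc38a3 probe set passed with the covariate (-1.54, adjusted p = 0.0112). The causes were not tested.

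Same-numbered arrays of the groups had deviations that correlated at -0.16, -0.11, 0.14 and 0.039, and 2 of 8 arrays correlated best with their own number. No pairing by number was thus seen, though so few arrays cannot exclude it. With the replicate number as a block 7 member genes were higher and 7 lower, and all 14 were those called without it. Dim signals limit the rest: 76 of 157 member probe sets were not tested.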
